A study of Homo sapiens with 2 samples.

Results

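EGR1, EGR2, EGR3, NR4A1, IER2, IER3, DUSP1, KLF6, CYR61 and CTGF are immediate early genes of the serum response outside the FOS and JUN families. These 10 genes were taken by symbol from the 30967 gene names on the arrays, and all 16 of their probes were kept, among 40976 transcript probes with an unflagged spot. Expression had been profiled in Y79, an established retinoblastoma line of human origin grown in suspension, on 2 one-color Agilent whole-genome arrays. The siRNA-untreated group was 1 array of Y79 cells kept in 10% serum. The siRNA-treated group was 1 array of Y79 cells taken 48 h after Ep-CAM siRNA, which the study's methods give as 200 nM. By those methods, but not by the sample labels, both cultures had first received 5 µM AZC (5′-azacytidine), a DNA demethylating agent, for 5 days. The methods also state that the siRNA was delivered in serum-free medium and that serum-rich medium was added afterward. No array of cells given a scrambled siRNA was analysed here, so the Ep-CAM siRNA, the transfection and the change of medium cannot be told apart. With 1 array per condition there was no replicate error, no test and no p-value, and every statement compares these 2 arrays only.

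Immediate early genes are transcribed within minutes of a growth signal, without new protein synthesis, from promoters that already carry serum response factor (SRF) or CREB. ERK phosphorylates the SRF partners of the ternary complex and kinases upstream of CREB, and the resulting mRNAs are mostly short-lived. The proteins made include zinc finger and nuclear receptor transcription factors (EGR, KLF and NR4A families), secreted matricellular proteins (CYR61 and CTGF) and DUSP1, a nuclear phosphatase that switches off MAP kinases.

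The arrays had 70.4% and 68.0% of their transcript spots well above background, and the lowest signals so marked were 14.9 (untreated) and 17.5 (siRNA-treated). Signals are processed brightness in arbitrary units, with the error that the extraction software gave for the spot. The log2 ratio is siRNA-treated over siRNA-untreated after each array was divided by its median, and its standard error (SE) was derived from those 2 spot errors, so it covers technical error only. Over all 26992 probes measured on both arrays the median log2 ratio was -0.03 with an SD of 0.33. A gene was called past the threshold at a log2 ratio of at least 1 or at most -1. The targeted gene, Ep-CAM (TACSTD1 on this array), had 1 probe, with signals of 15.6 and 12.0, not marked as well above background on either array. The software sets that mark for each spot, so a signal above 14.9 can lack it. Among cell type markers, 4 of the 8 photoreceptor-lineage markers on the array were well above background on both arrays (CRX, OTX2, ARR3 and AIPL1), while NRL and NEUROD1 were not on either. So were 4 of 5 fibroblast, 3 of 4 pigment epithelium and glia and 3 of 4 blood and endothelium markers, with log2 ratios between -0.55 and 0.17. In untreated cells the blood marker CD3E read 815 and the photoreceptor-lineage marker CRX 86.8. A signal well above background therefore does not by itself show that a cell type was present. In a culture measured in bulk, fewer cells of a type and less RNA per cell cannot be told apart.

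DUSP1 was the only one of the 10 genes past the threshold, and it was lower in siRNA-treated cells. Its probe read 226 ± 23.2 in untreated cells and 54.2 ± 7.44 in siRNA-treated cells, 4.28-fold lower. Of the 10 genes, 8 had a ratio, 1 was lower and 0 were higher, where 0.875% of all genes were lower and 1.3% were higher at their brightest probe. The other 7 lay between -0.45 and 0.17, all within 0.5 of no difference, as were 89.3% of all measured probes. EGR2 and EGR3 were dim on both arrays, that is not well above background, and had no ratio. CTGF had a ratio, but its signal was too near the lowest so marked for a call as lower. The median over the 8 genes was -0.16, beside -0.03 over all gene names. EGR1, NR4A1 and KLF6 were read at bright probes, which as a class had lower medians over the whole array, of -0.19 and -0.30 (below).

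**Figure D1:**
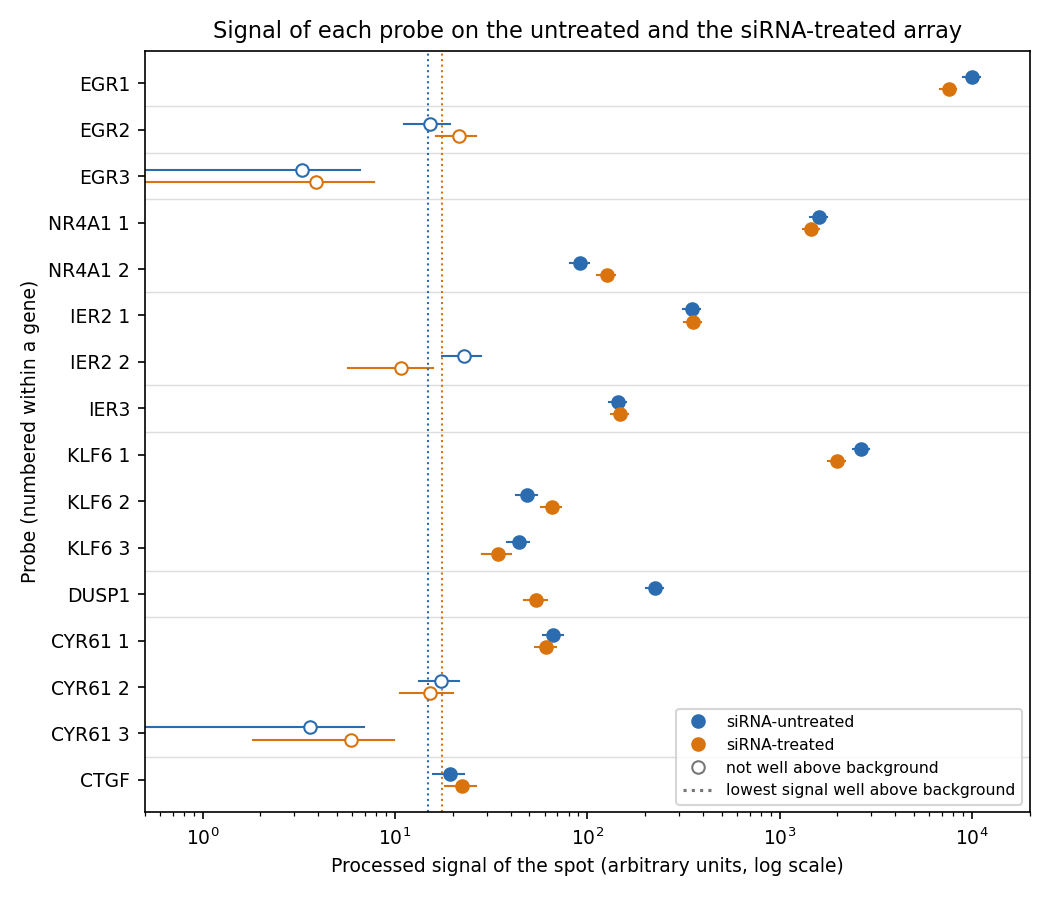
Processed signal (arbitrary units, log scale) of the 16 probes on the siRNA-untreated (blue) and siRNA-treated (orange) array. Bars are the extraction software's error of the spot, cut at the left edge of the axis, open circles are signals not well above background, and dotted lines mark the lowest signal well above background, 14.9 and 17.5. The wide gap is DUSP1, at 226 and 54.2, and EGR2, EGR3, IER2 2, CYR61 2 and CYR61 3 are open on both arrays.

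The EGR proteins are zinc finger transcription factors that bind GC-rich sites and relay the early signal to later genes. EGR1, which serum and ERK signaling induce through SRF, was read by 1 probe on chromosome 5 (hg17, 137832790 to 137832849, plus strand). It read 10008 ± 1001 without and 7562 ± 756 with siRNA. The untreated array was the higher, by a log2 ratio of -0.44 (SE 0.20), which is 2.16 times its technical error. Bright probes as a class leaned the same way: the 685 measured probes with a mean signal of 5000 or more had a median of -0.30, and 89.6% of them were below 0. When the arrays were made equal in distribution by quantile normalization, the EGR1 ratio was -0.11. EGR2, a relative known from hindbrain and Schwann cell development, had signals of 15.3 ± 4.15 and 21.5 ± 5.07. EGR3, also induced by growth and neuronal signals, had 3.30 ± 3.29 and 3.88 ± 3.87. From such untreated signals a decrease could not have been seen for either gene.

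NR4A1 (NUR77) is an orphan nuclear receptor whose activity follows its rapid transcription. Its brighter probe, on chromosome 12 (hg17, 50739445 to 50739504), read 1607 ± 161 without and 1464 ± 146 with siRNA, a log2 ratio of -0.17 (SE 0.20). The other probe, on the same chromosome from 50735930 to 50735989, read 92.0 ± 10.2 and 126 ± 13.6, a ratio of 0.42 (SE 0.22). The probes of this gene leaned in opposite directions, and the brighter 1 did not differ beyond its technical error. In the array's annotation they belong to different transcript entries of the gene, and that of the dimmer probe was not found in RefSeq. Measured probes with a mean signal from 1000 to 5000 had a median ratio of -0.19, close to that of the brighter probe.

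KLF6, a Krüppel-like zinc finger factor with growth-restraining activity, had 3 probes, all measured on both arrays. The brightest crossed an exon junction on chromosome 10 (hg17, 3811779 to 3812353, minus strand) and read 2665 ± 266 without and 1993 ± 199 with siRNA, a ratio of -0.45 (SE 0.20). A dimmer probe 3′ of it (3811387 to 3811446) read 44.1 ± 5.87 and 34.2 ± 5.76, a ratio of -0.40 (SE 0.31). The third, in the array's annotation a variant 1 transcript (3808418 to 3808477), read 48.6 ± 6.14 and 65.6 ± 7.83, a ratio of 0.40 (SE 0.25). So 2 of 3 probes were lower and 1 was higher, none past the threshold, and their mean was -0.15. Measured probes with a mean signal from 1000 to 5000, the class of the brightest probe, had a median ratio of -0.19. Under quantile normalization the brightest probe had -0.21. The sequences are given because these probes disagree and read different stretches of the gene. The whole junction probe is shown, and the first 30 bases of the others, all as printed on the array, 5′ to 3′.
KLF6 junction probe: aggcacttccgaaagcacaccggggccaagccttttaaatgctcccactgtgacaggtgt
KLF6 probe 3′ of the junction: ggttgggttgattgtatgttgaggatctat
KLF6 variant 1 probe: accatgccggtttgatcttccattgctcaa

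IER2 and IER3 are small proteins named for their early response, and IER3 modulates cell survival under stress. At its brighter probe, on chromosome 19 (hg17, 13126586 to 13126645), IER2 read 351 ± 35.3 without and 356 ± 35.8 with siRNA, a log2 ratio of -0.02 (SE 0.21). Its other probe, 22.9 ± 5.27 and 10.7 ± 5.04, was dim on both arrays (not well above background). IER3, on chromosome 6 (hg17, 30819291 to 30819350, minus strand), read 144 ± 14.9 and 148 ± 15.4, a ratio of 0.00 (SE 0.21). Both genes were thus detected at nearly equal signal, and of the 8 genes with a ratio these were the nearest to 0. The IER3 spot lay in the tile of the array described below, and the spots around it had a median ratio of -0.16.

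Immediate early mRNAs often carry ATTTA, the core of AU-rich elements through which ZFP36 proteins bind and shorten mRNA life. On the strand printed, ATTTA stood in 2 of the 16 probes, 1 each of NR4A1 and IER3, and in 7.98% of the 41000 transcript probes. The 30-base stretches that hold it are shown with ATTTA in capitals (the NR4A1 probe holds 2, of which 1 is whole in the stretch), to locate it beside probes with ratios of -0.17 and 0.00.
NR4A1 brighter probe, bases 5 to 34: acagattctgacATTTAtatttgtgtattt
IER3 probe, bases 29 to 58: aggtctcttggtATTTAttgagctttgtgg

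CYR61 (CCN1) and CTGF (CCN2) encode secreted matrix-associated proteins of the CCN family, which serum induces through SRF and through YAP with TEAD factors. CYR61 had 3 probes on chromosome 1. The 1 measured, from 85760974 to 85761033 (hg17), read 66.7 ± 7.79 without and 61.4 ± 7.85 with siRNA, a ratio of -0.16 (SE 0.25). The others, at 17.4 and 15.3 and at 3.62 and 5.89, were dim on both. CTGF, on chromosome 6 (hg17, 132311823 to 132311882, minus strand), read 19.4 ± 3.62 and 22.3 ± 4.16, a ratio of 0.17 (SE 0.38). Its signal was just above the lowest marked as well above background on each array, so a decrease past the threshold could not have been seen.

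DUSP1 dephosphorylates ERK, JNK and p38 in the nucleus and is itself induced by them, which closes a feedback loop. It was read by 1 probe, printed once, on chromosome 5 (hg17, 172127902 to 172127961, minus strand), whose first 30 bases are given because the gene's ratio rests on it.
DUSP1 probe: tgtctactcctagaagaaccaaatacctca
The log2 ratio was -2.10 (SE 0.25), 8.48 times the error derived from the software's 2 spot errors. The processed signal also holds the software's adjustment for trends over the array surface. What part that adjustment had in the ratio was not tested. Before background subtraction the spot had a median brightness of 231 without and 118.5 with siRNA, with a local background of 36.0 and 43.0. Of the 26992 measured probes 10 were this low or lower, DUSP1 among them. Of those 10, 4 lay in the tile of the array described below, which held 4391 of the measured probes. On the authors' unsubtracted values the ratio was -1.01, and after normexp background correction -1.02, in the same direction with a smaller size.

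**Figure D2:**
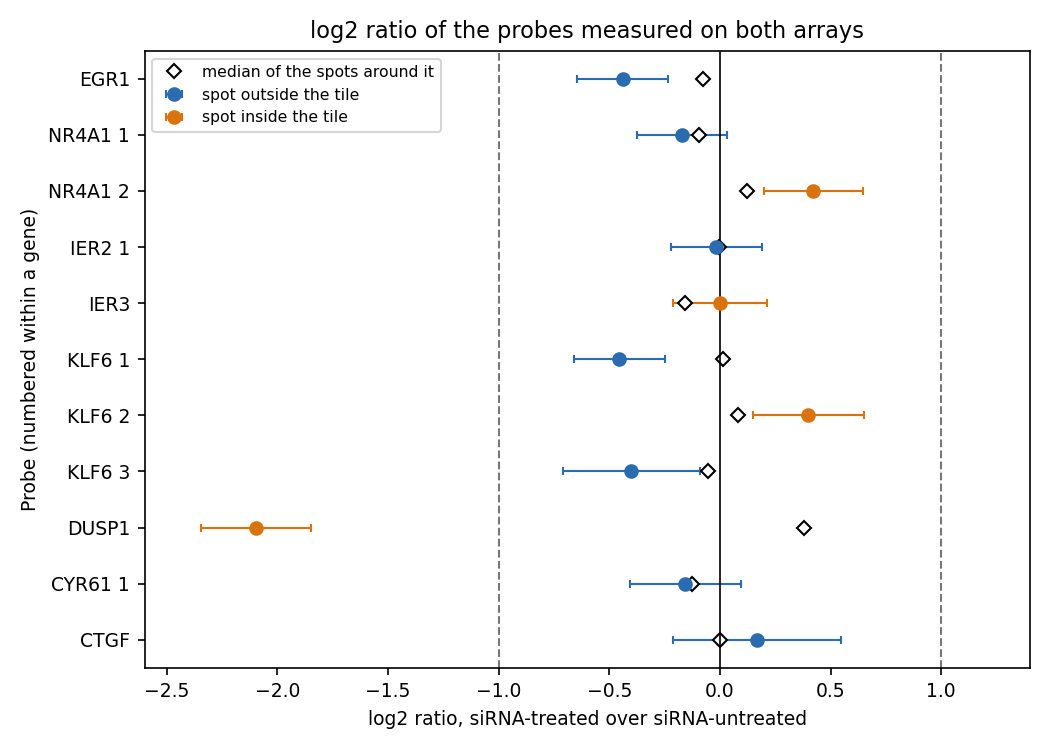
log2 ratio (siRNA-treated over siRNA-untreated) of the 11 probes measured on both arrays. Bars are the SE from the software's spot errors, diamonds the median ratio of the measured spots around the probe, dashed lines the threshold of 1 in either direction, and orange marks spots in the tile of the array with most called probes. DUSP1 stands at -2.10 with its surroundings at 0.38, and the other 10 probes lie between -0.45 and 0.42.

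The DUSP1 spot, at row 495 and column 74, lay in the part of the array where ratios varied most. The surface was divided into 6 tiles, and in the tile of rows 355 to 532 and columns 43 to 85, 7.51% of the probes were past the threshold, 266 higher and 108 lower of 4981. The SD of the ratio was 0.51 there and 0.29 outside, where 105 were higher and 162 lower of 24160. Ratios varied over short distances around DUSP1. The 24 measured probes within 4 rows and 2 columns of it had ratios from 0.04 to 2.01 with a median of 0.66, 5 of them past the threshold as higher and 0 as lower. Over 10 rows and 5 columns, 86 of 123 were above 0 with a median of 0.38, and DUSP1 minus that median was -2.48. The block of 19 rows and 5 columns that begins at its own row, 495, had a median of -0.17 over 48 measured probes, while the block just above it had 0.49. What part the position had in the ratio was not tested, and with the tile left out DUSP1 had no value.

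**Figure D3:**
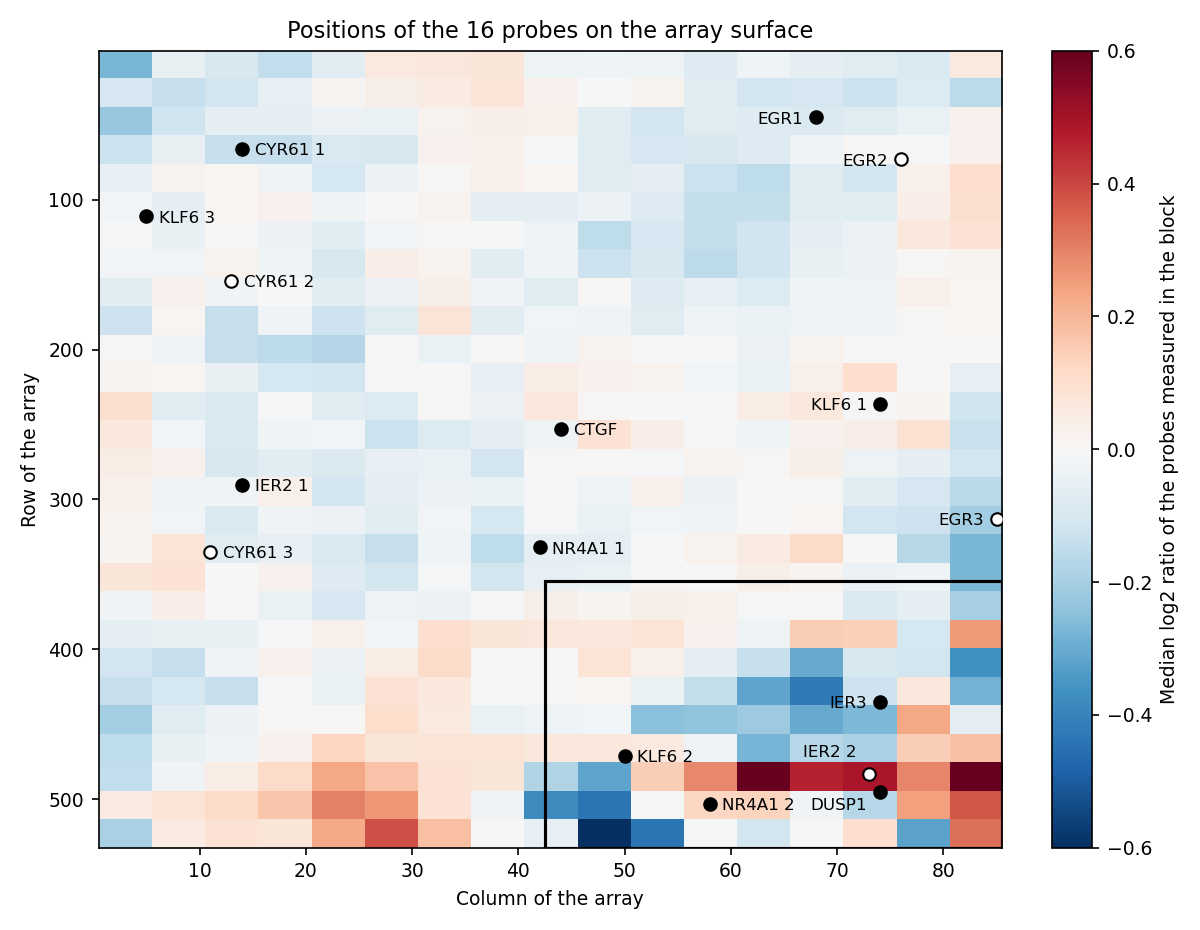
Rows and columns of the array, colored by the median log2 ratio of the probes measured in blocks of 19 rows by 5 columns, with the color scale ending at 0.6 in either direction. Filled circles are the 11 measured probes of the 10 genes, open circles the 5 not well above background, and the frame is the tile with most called probes. DUSP1, NR4A1 2, KLF6 2, IER3 and IER2 2 lie in the frame, where blocks of higher and lower ratios adjoin.

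Of the 16 probes, 5 lay in that tile and 4 of these had a ratio, with a median of 0.20. The 7 measured outside it lay between -0.45 and 0.17 with a median of -0.17. The probes of NR4A1 and KLF6 with positive ratios were both in the tile, at rows 503 and 471. The spots around them had medians of 0.12 and 0.08 over 10 rows and 5 columns. Within 4 rows and 2 columns the medians were 0.03 and 0.27. Of those 7 probes 0 passed the threshold, where 0.671% of all probes outside the tile were lower and 0.435% were higher. DUSP1 and IER3 had no probe outside the tile. Across the whole array 0.927% of probes were lower and 1.27% higher, and of the 11 measured probes of the 10 genes 1 was lower.

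**Figure D4:**
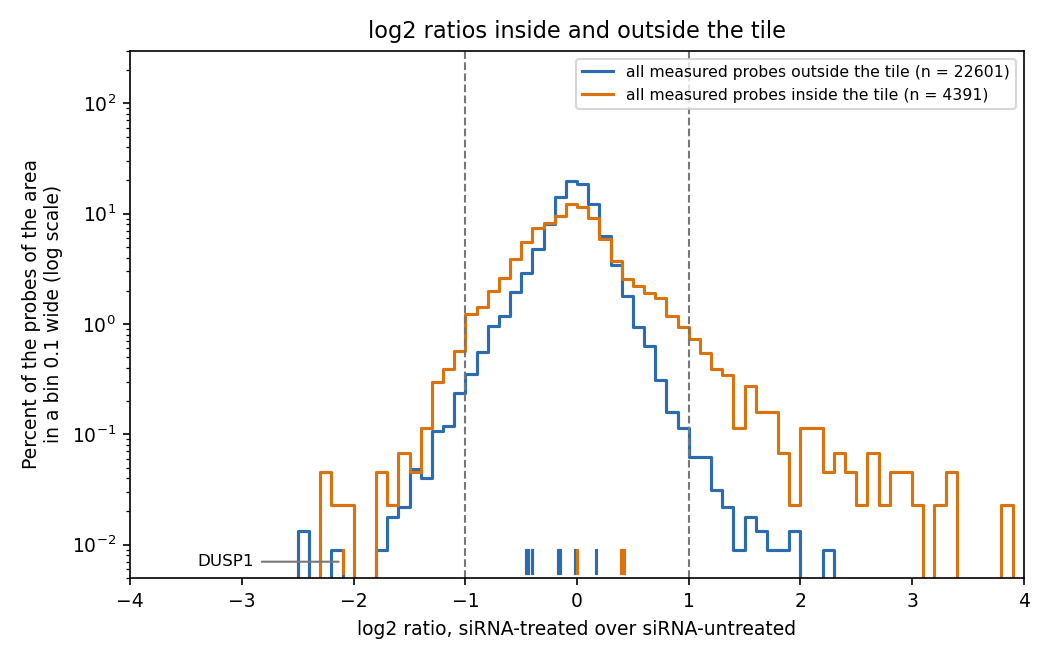
Distribution of the log2 ratio, as the percent of measured probes per bin (log scale), for the 4391 probes inside (orange) and the 22601 outside (blue) the tile. Short lines at the bottom are the 11 measured probes of the 10 genes in the same colors, and dashed lines mark the threshold. The tile is the wider distribution, and DUSP1 lies in its lower tail while the other 10 lie in the bulk of both.

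Promoters were examined for the sites through which these genes are known to be driven, in the 250 bases upstream of the RefSeq start (GRCh38.p14). Entries matched 7 of the 10 genes, 10 entries in all. On either strand, the searches were for the CArG box that SRF binds, the cyclic AMP element TGACGTCA, its core TGACG (which the full element contains), the EGR site GCGTGGGCG and the TEAD site GGAATG. These stood in 1.16%, 1.65%, 21.2%, 0.72% and 11.9% of the 35116 promoters of the table. EGR1 had 2 CArG boxes, at -105 to -96 and -83 to -74 from the start, and 2 TGACG cores. DUSP1 had no CArG box in this window but the full cyclic AMP element at -125 to -118, and TGACG cores at -172 to -168 and -111 to -107 beside it. CTGF had 3 TEAD sites and none of the others. The 3 promoters are printed because they carried different sites. The ratios of these genes were -0.44, -2.10 and 0.17, each from 1 probe, and a link between site and ratio was not tested. Capitals mark the sites, and a match is a string of letters and not a measured binding.
EGR1, chr5:138465229-138465478, plus strand: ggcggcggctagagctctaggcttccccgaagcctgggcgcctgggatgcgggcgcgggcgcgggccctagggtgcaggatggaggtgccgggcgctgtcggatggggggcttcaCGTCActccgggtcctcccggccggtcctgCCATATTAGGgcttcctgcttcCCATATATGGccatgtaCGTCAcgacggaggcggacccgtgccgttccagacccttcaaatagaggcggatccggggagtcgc
DUSP1, chr5:172771196-172771445, minus strand: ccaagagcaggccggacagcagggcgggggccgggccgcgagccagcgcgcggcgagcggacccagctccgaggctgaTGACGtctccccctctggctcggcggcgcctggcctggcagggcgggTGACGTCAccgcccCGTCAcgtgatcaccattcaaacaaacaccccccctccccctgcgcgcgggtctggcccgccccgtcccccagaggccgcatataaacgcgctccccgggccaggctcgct
CTGF, chr6:131951373-131951622, minus strand: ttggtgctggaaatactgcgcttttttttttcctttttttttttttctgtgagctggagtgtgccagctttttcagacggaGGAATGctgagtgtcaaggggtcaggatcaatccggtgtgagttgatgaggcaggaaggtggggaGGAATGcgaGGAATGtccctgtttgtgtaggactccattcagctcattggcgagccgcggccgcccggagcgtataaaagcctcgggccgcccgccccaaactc

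Among the other 4 genes with an entry, EGR2 had 3, of which 1 held a CArG box at -71 to -62 and 2 TGACG cores and another held 2 TEAD sites. IER2 had 1 TGACG core, and the entries of NR4A1 and KLF6 held none of the letters searched. The EGR site was in 0 of the 10 entries, and the full cyclic AMP element only in that of DUSP1.

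The factors that act on these promoters were mostly near or slightly below no difference. Of 9 genes for SRF and its partners, 7 had a ratio, 1 was lower and 0 were higher, with a median of -0.28. Over all genes at their brightest probe 0.875% were lower and 1.3% higher, so 0 past the threshold in a short list is no result about its genes. CREB1, the factor that binds the cyclic AMP element, was the lower gene, from 86.7 to 37.4, a ratio of -1.25, and its other 2 probes were dim on both arrays. On the authors' unsubtracted values its ratio was -0.58 and after normexp -0.45, not past the threshold. SRF itself, named after its values had been seen, had ratios of -0.46, -0.60 and 0.12 at its 3 probes. ELK1, an ERK-phosphorylated SRF partner, had the highest ratio of the list, -0.05. Of 12 genes of the ERK cascade 11 had a ratio and 0 passed in either direction, with a median of -0.05. The lowest ratio among them was -0.33, for HRAS, a small GTPase upstream of the RAF kinases.

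Among 10 relatives of these genes 9 had a ratio and 0 passed the threshold, where 0.875% of all genes were lower and 1.3% higher. The median was 0.01. Of the nuclear receptors, NR4A2 read 167 without and 272 with siRNA, a ratio of 0.67, and NR4A3 had 0.08. The relative EGR4 had 0.23. Krüppel-like factors differed among themselves: KLF4, which restrains division in epithelia, read 197 and 116, a ratio of -0.80. KLF2, KLF5 and KLF9 had 0.00, 0.01 and -0.02, and KLF10 was not well above background. IER5 had -0.35 at its brighter probe, which lay in the tile, and 0.12 at the other, and IER5L had 0.33.

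Genes that brake the response also had 0 past the threshold among the 7 of 9 with a ratio. Of all genes 0.875% were lower and 1.3% higher. The median of the brakes was -0.09. NAB2, a corepressor of EGR proteins, had -0.09, and NAB1 was not well above background. ZFP36, which binds AU-rich mRNA, read 688 and 508, a ratio of -0.47. Its relative ZFP36L1 had -0.24 and ZFP36L2 was not well above background. The antiproliferative gene BTG1 had the lowest ratio, -0.60, from 4555 to 3078, and BTG2 had 0.01. TOB2, of the same family, had 0.16. TOB1, also of that family, had 0.17 at its brighter probe, which lay in the tile among spots with a median of 0.46, and -0.16 at the other. ZFP36 was measured outside the tile, and BTG1 was in the class of bright probes with a median of -0.19.

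In the CCN family with the YAP and TEAD genes, 13 of 15 were measured on both arrays and 1 had a bound, 0 passed, and the median over those measured was -0.08. They ran from -0.31 for AMOTL2, an angiomotin that binds YAP, to 0.17 for the CCN family member WISP2. Among 35 other serum-induced genes 29 were measured on both arrays and 2 had a bound, 1 was lower and 1 higher, and the median over those measured was -0.01. The lower gene was SGK, the serum and glucocorticoid induced kinase, from 5150 to 2349, a ratio of -1.17. It was measured outside the tile, and under quantile normalization it had -0.89 and was not past the threshold. The higher gene was ATF3, a stress-induced bZIP factor, which was dim in untreated cells (24.7) and read 121 with siRNA, at least 4.80-fold higher, a log2 bound of 2.26. On the authors' unsubtracted values the bound was 0.97 and after normexp 0.93, not past the threshold. These 2 settings draw ratios of low signals toward 0 and cannot decide the call. The ATF3 spot was at row 488 and column 80 in the tile, where the spots around it had a median ratio of 0.46. The highest ratio measured on both arrays was 0.45, for the kinase PIM1. Over the 6 lists 76 of 90 genes were measured on both arrays and 3 had a bound. Of these 2 were lower and 1 higher, where 0.875% of all genes were lower and 1.3% higher. The median of -0.05 was near the -0.03 of all gene names.

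**Figure D5:**
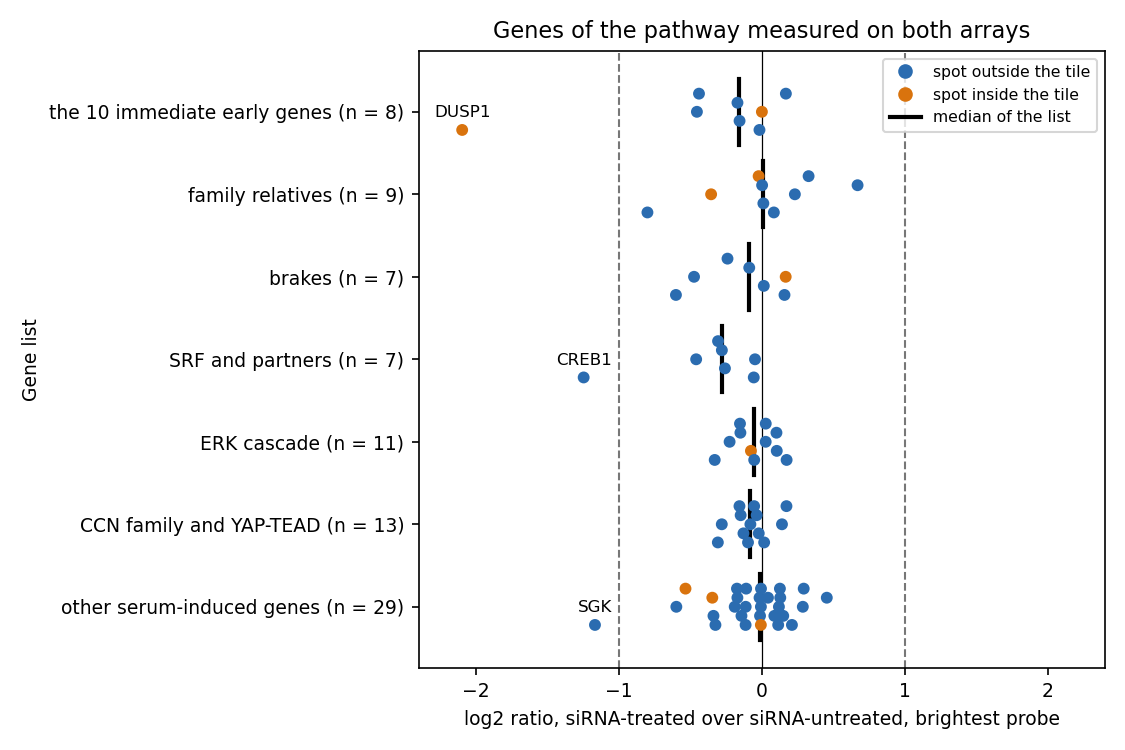
log2 ratio (siRNA-treated over siRNA-untreated) at the brightest probe of each gene measured on both arrays, for the 10 immediate early genes and 6 lists of related genes. Black bars are medians, dashed lines the threshold, and orange marks spots in the tile. DUSP1, CREB1 and SGK are past the threshold as lower, and ATF3, whose ratio is a bound, is not drawn.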

How the data were processed

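The deposited scanner files held the intensity of each spot, made by the authors with Agilent Feature Extraction (9.5.3.1 in the file headers, 9.1 in the series text) for 1 array per condition. The processed intensity is background-subtracted brightness that the software further adjusted spot by spot for trends over the array surface, unscaled between arrays. The authors' value table held the raw median intensity for all probes printed once and was used as an alternative. Both arrays came from the same slide and scan. The array design gives probe positions on hg17.

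Spots of controls and those flagged as outliers were dropped. Signals were scaled to the 50th percentile of their array (48.9 and 50.1), floored at 0.01 and put on the log2 scale. A probe had a ratio where it was well above background on both arrays, a bound where on 1, and none otherwise. Bounds replace the dim signal by the lowest signal well above background where that is higher. The threshold was a log2 ratio of 1. A gene was read at its brightest probe. No probe of the 10 genes was printed several times. The 171 probes with at least 8 measured spots had a median SD between spots of 0.14. The number of arrays limits the precision, and nothing here measures spread between cultures.

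Named were all probes of the 10 genes, all relatives and brakes, and in the other lists the genes past the threshold and the highest and lowest ratio, except 1 gene of the ERK cascade list that is not reported here. The genes, lists, motifs and tile were chosen with earlier results of these data known. Python 3.11.15 with pandas 2.3.3 and R 4.3.3 with limma 3.58.1 (normexp, offset 50) were used. Promoter sequences and current symbols are from RefSeq (GRCh38.p14), and 14 of the 16 probes had an accession found there.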

Additional observations from a re-analysis of the deposited data

How the results depend on the processing

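No paired analysis was possible because each condition had 1 array, and for the same reason no array could be left out. In 14 alternatives 0 of the 10 genes were higher. Their count of lower genes was 1 in all but 2. Normexp background correction gave 3 (DUSP1, EGR1 and KLF6), and leaving out the tile, which held the DUSP1 probe, gave 0. Normexp also moved the median of all probes from -0.03 to -0.19. It gave a median of -0.58 over the 10 genes and -0.29 over the related lists. Relative to that shift DUSP1 had -0.85, EGR1 -0.86 and KLF6 -0.96. The shift was not the same for all probes. The bright probe of ZFP36L1 went from -0.24 to -0.94, and the low one of CTGF from 0.17 to 0.21. Values relative to the median shift are therefore not corrected for it at bright probes such as those of EGR1 and KLF6. Fitted without spots dimmer than their local background, an alternative added with the data already in view, normexp gave -1.05 for DUSP1 and 1 lower gene.

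DUSP1 kept its direction in the 13 alternatives that gave a value, from -2.48 to -1.01. All of them read the same single spot on each array. The changes of floor, filter, threshold and probe averaging could not move it and left -2.10, so the count is no measure of support. EGR1 ran from -1.03 to -0.11 and KLF6 from -1.12 to -0.15, all negative, while NR4A1 (-0.70 to 0.13), IER2 (-0.46 to 0.03) and IER3 (-0.19 to 0.16) took either sign. In the related lists the 2 lower genes became 1 under quantile normalization, with the authors' value table and in the added normexp fit, and 3 under normexp. The 1 higher gene, read as a bound, became 0 with normexp, with the value table, without the tile, with means over probes and with bounds left out, and 2 at ratios of 1.5 and 0.55. The cause was not tested. Dim signals limit EGR2, EGR3, CTGF and the Ep-CAM probe.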
